A study of Homo sapiens with 12 samples.

Results

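To describe how the transcriptome of breast cancer cells differed once CCAR2 had been knocked out, RNA-seq libraries of CCAR2 KO and wildtype (WT) MDA-MB-231 cells, all kept in normoxia, were compared gene by gene. Of the 60664 genes in the table, 21410 had enough counts to be tested, and 13893 of these averaged at least 1 CPM (counts per 1000000 of the TMM-adjusted library size) over the 8 libraries and are called expressed below. MDA-MB-231 cells are a widely used human line from a breast cancer of the triple-negative type, which lacks the estrogen and progesterone receptors and HER2 amplification. The 4 WT libraries carry the genotype label wild type and the 4 KO libraries the label CCAR2-/-, and all 8 are labelled untreated. The other 4 of the 12 libraries come from WT cells in hypoxia and enter only 1 alternative fit. According to the methods, the knockout was made by lentiviral delivery of Cas9 and a single guide, and neither the methods nor the labels state whether the KO cells are 1 clone, whether the WT cells had received a control vector, or whether replicates are separate cultures. The methods call the replicates biological but give fewer of them than the 4 libraries per group used here. The loss of CCAR2, the delivery of the vector and the history of the KO line therefore cannot be told apart, and the p-values measure only the spread between these libraries, which may be technical.

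CCAR2 encodes DBC1, a mainly nuclear protein without known enzyme activity. DBC1 is best known for binding and inhibiting the deacetylase SIRT1, which acts on histones and on many other proteins. It also binds the deacetylase HDAC3 and several nuclear receptors, and together with ZNF326 it forms the DBIRD complex, which links RNA polymerase II to splicing.

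CCAR2 itself (ENSG00000158941, chromosome 8, 22604632 to 22621514 of GRCh38, plus strand) was at 143, 144, 146 and 152 CPM in the WT libraries and 54.6, 56.8, 60.9 and 58.4 CPM in the KO libraries. The KO level was 39.5% of the WT level, and no KO library reached the lowest WT library. The log2 fold change was -1.34 ± 0.042 (SE, adjusted p = 2.14e-09) and the two-sided exact permutation test on this gene gave p = 0.0286, the smallest value that 4 libraries against 4 can give. A count over the whole gene does not show whether the remaining transcripts encode protein, and no library lacked CCAR2 reads. According to the methods, the edited region was sequenced and Western blotting verified that the protein was lost. VIM†, the intermediate filament of mesenchymal cells, was at 5095 ± 81.6 CPM in WT and 5185 ± 199 CPM in KO cells, whereas the epithelial cadherin CDH1† did not exceed 0.258 CPM in any of the 8 libraries. ESR1† and PGR†, which encode the estrogen and progesterone receptors, averaged at most 0.307 and 0.0901 CPM in either group. The markers of the labelled line were thus seen in both groups. Genes with a dagger were chosen after their values were seen, and all other genes given with their own values follow a fixed rule of size or abundance. The values summed to between 153904088 and 213743693 per WT library and between 68599412 and 152328450 per KO library, with KO replicate 2 the lowest. The first principal component held 48.5% of the variance and placed the 4 KO libraries apart from the 4 WT libraries.

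A gene counted as changed, or called, where edgeR (quasi-likelihood test) gave an adjusted p under 0.05 together with a log2 fold change of 0.5 or more in either direction. The standard error of a log2 fold change (SE) follows it after ±. Among all genes tested, 1441 were called higher in KO cells (6.73%) and 629 lower (2.94%), together 2070 (9.67%). Among expressed genes, 994 were higher (7.15%) and 468 were lower (3.37%), and the 4 KO values lay wholly above or below the 4 WT values for 955 and 446 of them. Of all expressed genes, called or not, 41.8% had groups that did not overlap, so this alone sets few genes apart. In bulk RNA, a different share of cells that express a gene and a different level per cell cannot be told apart. Most changes were small: the log2 fold change of 90% of expressed genes lay between -0.45 and 0.65 with a median of -0.02, and 285 genes were higher and 77 lower by at least 1 on the log2 scale. At the adjusted p alone, 2751 expressed genes were higher (19.8%) and 3146 lower (22.6%), so that lower genes outnumbered higher genes there. Genes of low abundance were called more often, 19.1% of those between 1 and 10 CPM against 7.31% between 10 and 100 CPM and 5.34% at 100 CPM or more. Over the chromosomes of the nuclear genome with at least 100 expressed genes, the median log2 fold changes ranged from -0.0765 on chromosome 13 to 0.0442 on chromosome X.

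**Figure D1:**
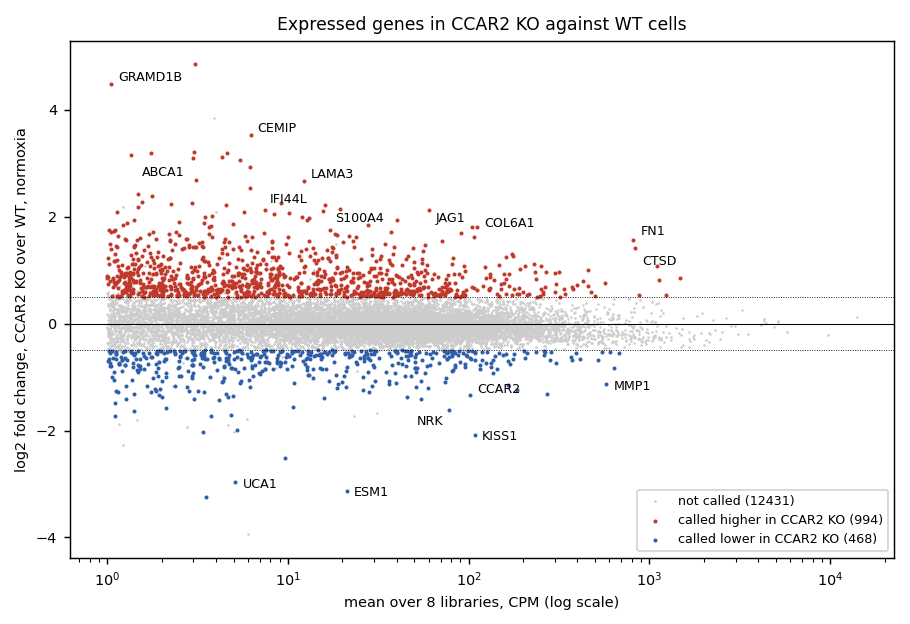
Log2 fold change of CCAR2 KO over WT cells for each of the 13893 expressed genes against its mean CPM over the 8 libraries (log scale); red points were called higher (994), blue points lower (468), and dotted lines mark a log2 fold change of 0.5 in either direction. The changes of at least 2 on the log2 scale were mostly increases, 32 against 6, and CCAR2, KISS1, NRK and MMP1 were among the lower genes of high abundance.

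Among expressed genes with a symbol and no overlap between the groups, the 15 highest log2 fold changes belonged to GRAMD1B, CEMIP, SFTPB, MUC5AC, AGR2, CD52, CD96, FSIP2, HOPX, NOX5, ABCA1, LAMA3, JCAD, FMO5 and CST1, from 4.48 down to 2.39. JCAD, a protein of cell junctions, was at 1.47, 1.57, 1.85 and 2.40 CPM in the WT libraries and 10.9, 10.1, 10.2 and 11.1 CPM in the KO libraries, a log2 fold change of 2.54 ± 0.14. HOPX, an atypical homeodomain protein that does not bind DNA, was at 1.02, 1.30, 1.03 and 1.27 CPM in the WT libraries and 9.05, 9.23, 10.4 and 9.97 CPM in the KO libraries, a log2 fold change of 3.07 ± 0.12. For both genes every KO library was more than 4 times the highest WT library. NOX5, a calcium-activated NADPH oxidase, was at 1.19, 1.80, 1.36 and 1.33 CPM in the WT libraries and 8.25, 12.7, 14.3 and 8.22 CPM in the KO libraries, a log2 fold change of 2.93 ± 0.20, and its KO replicates 2 and 3 were above KO replicates 1 and 4. FSIP2, a protein of the sperm tail, and FMO5, a flavin-containing monooxygenase, had log2 fold changes of 3.10 ± 0.15 and 2.42 ± 0.15. CST1, a secreted inhibitor of cysteine proteases, had a log2 fold change of 2.39 ± 0.17. CD96 and CD52, which encode surface proteins known from lymphocytes, were at 0.892 ± 0.139 CPM in WT and 7.72 ± 0.617 CPM in KO cells and at 0.272 ± 0.0579 CPM in WT and 2.43 ± 0.501 CPM in KO cells (SD, n = 4). Of 18 markers of blood cells, none averaged 1 CPM, CD3E, MS4A1, CD2 and TYROBP were at 0 in all 8 libraries, and the summed level was between 1.72 and 1.96 CPM in WT and between 2.32 and 2.89 CPM in KO libraries. The part of such cells in the values of CD96 and CD52 was not tested.

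The genes with the largest decreases were led by ESM1, which encodes the secreted proteoglycan endocan. ESM1 (ENSG00000164283, chromosome 5, 54977864 to 55022671) was at 38.7, 38.7, 38.97 and 35.3 CPM in the WT libraries and 4.46, 3.58, 4.36 and 4.86 CPM in the KO libraries, a log2 fold change of -3.13 ± 0.088 (SE, adjusted p = 1.21e-09). The long noncoding RNA UCA1 was at 9.81, 9.51, 8.82 and 8.15 CPM in the WT libraries and 1.42, 1.28, 1.17 and 0.776 CPM in the KO libraries, a log2 fold change of -2.97 ± 0.16. KISS1 (ENSG00000170498, chromosome 1, 204190341 to 204196486), whose peptide product is known as a suppressor of metastasis, was at 153, 188, 186 and 172 CPM in the WT libraries and 39.2, 42.1, 40.6 and 43.6 CPM in the KO libraries, a log2 fold change of -2.08 ± 0.065 (SE, adjusted p = 2.14e-09). Each of these transcripts was lower in all 4 KO libraries than in any WT library, which the rule for the 15 lowest required. NRK, a kinase that acts on JNK signaling, was at 133, 108, 113 and 119 CPM in the WT libraries and 40.4, 38.9, 37.3 and 37.1 CPM in the KO libraries, a log2 fold change of -1.62 ± 0.062. The adaptor SAMSN1 and the metabotropic glutamate receptor GRM5 had log2 fold changes of -1.99 ± 0.092 and -2.03 ± 0.25. The rest of the 15 lowest included PSG1, LRRN4, KRT14, KRTAP2-3, FOXA3, RFPL4AL1, CDC42EP5 and INSYN2B, from -1.73 to -1.41. PSG1, KRTAP2-3 and RFPL4AL1 have near-identical relatives, so their counts are uncertain.

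Some of the most abundant transcripts of the cell were also called. Of the 8 most abundant genes called higher, FN1 and CTSD moved most. FN1 (ENSG00000115414, chromosome 2, 215360440 to 215436172) encodes fibronectin, a glycoprotein of the extracellular matrix, and was at 445, 364, 380.4 and 460.3 CPM in the WT libraries and 1219.6, 1148, 1268 and 1215 CPM in the KO libraries, a log2 fold change of 1.56 ± 0.074 (SE, adjusted p = 3.15e-08). CTSD, the lysosomal protease cathepsin D, was at 404, 479, 445 and 495 CPM in the WT libraries and 1127, 1185, 1317 and 1195 CPM in the KO libraries, a log2 fold change of 1.40 ± 0.068. Both were higher in every KO library than in any WT library, which the rule for these 8 genes required. The others included the calcium-binding protein S100A6 (1.07), the IGF-binding protein IGFBP4 (0.85), the serine protease PRSS23 (0.76) and the saposin precursor PSAP (0.54). Of the 8 most abundant genes called lower, FLNC, which crosslinks actin, was at 898, 675, 781 and 914 CPM in the WT libraries and 454, 441, 476 and 464 CPM in the KO libraries, a log2 fold change of -0.83 ± 0.082. MMP1, an interstitial collagenase, was at 806, 814, 833 and 720.2 CPM in the WT libraries and 410.1, 349, 335 and 349 CPM in the KO libraries, a log2 fold change of -1.14 ± 0.067 (SE, adjusted p = 1.51e-07). MMP1 had the largest decrease of the 8. ANKRD1, a target gene of YAP, and SSR3, a subunit of the translocon-associated complex, had log2 fold changes of -0.54 and -0.66, and OGFRL1, UBE2S and HMGB2 had -0.69, -0.55 and -0.55.

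To describe the changes by function, 53 lists of pathway, complex and cell type genes were read against the shares of all genes tested. The lists overlap, and of the 1494 tested genes in any list, 261 were called higher and 74 lower. Both shares were larger than among all genes tested, of which 6.73% were higher and 2.94% lower. The lists were chosen with earlier results of these data known. A list with a share above that of all genes tested is therefore described here and does not stand out from a neutral set of lists. Interferon-stimulated genes had the highest share called higher, 29 of 50 (58.0%), followed by secretory epithelial genes with 11 of 21 (52.4%), hyaluronan metabolism with 6 of 13 (46.2%) and integrins and laminins with 12 of 29 (41.4%). Replication-dependent histones had the highest share called lower, 13 of 41 (31.7%), and angiogenic factors were called in both directions, 9 higher and 7 lower of 30. Ribosomal proteins, G1/S genes and the genes of the mitochondrial genome had no member called in either direction.

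**Figure D2:**
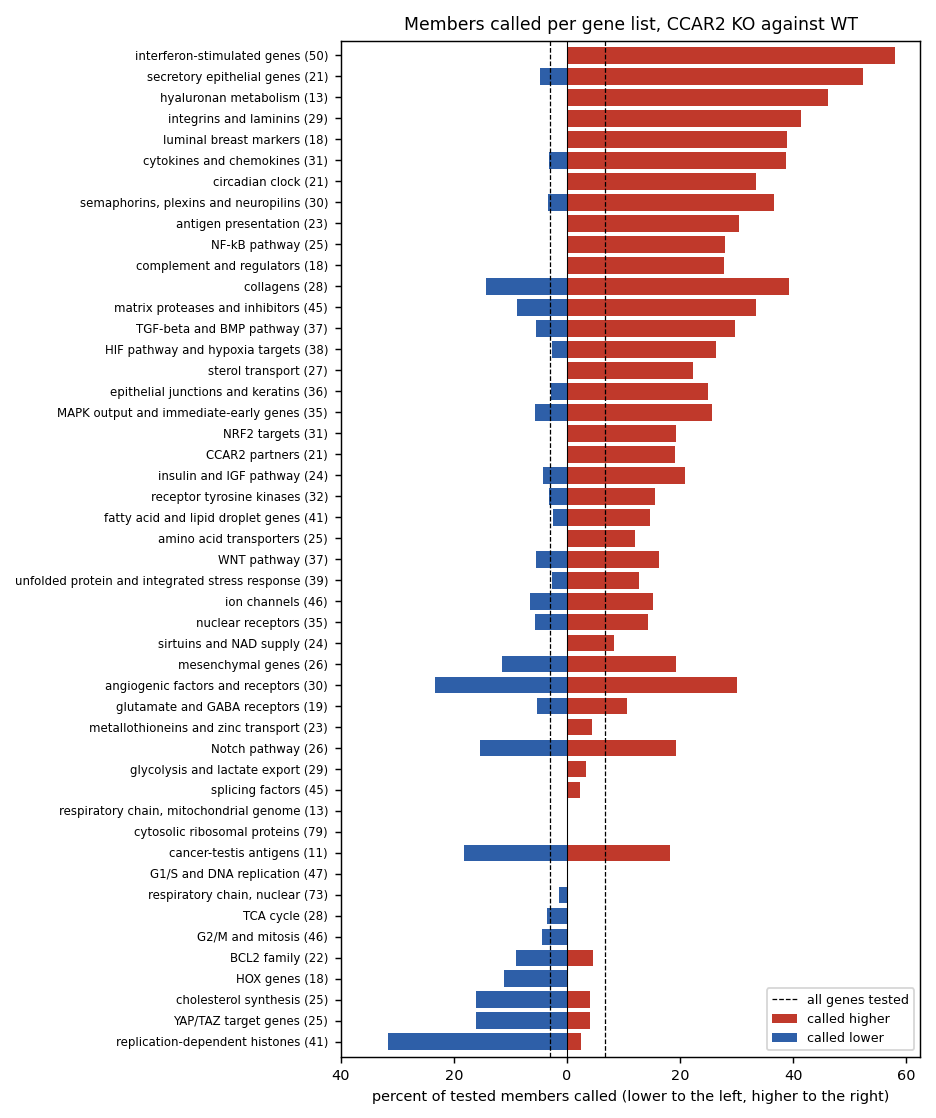
Percent of the tested members of each gene list that were called higher (red, to the right) or lower (blue, to the left) in CCAR2 KO cells, with the number tested in parentheses, for the lists shown, which have at least 10 tested members each; dashed lines mark the shares of all genes tested, 6.73% higher and 2.94% lower. Interferon-stimulated, secretory and adhesion genes stand at the top and replication-dependent histones at the bottom.

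Interferon-stimulated genes are switched on through STAT and IRF transcription factors, which bind the interferon-stimulated response element, and their products sense or degrade foreign RNA and present antigen. Of the 50 tested, 29 were called higher and none lower by edgeR, DESeq2 or limma-voom (1 at an unadjusted p under 0.05), 47 had a positive log2 fold change, and the median was 0.58 against 0.01 over all genes tested. At the adjusted p alone 40 were higher (14.9% of all genes tested were), and 41 had no overlap between the groups (31.0% of all genes tested, in either direction). The 4 expressed members with the largest changes were IFI44L, OAS2, IFIH1 and OASL. IFI44L, an interferon-induced cytoplasmic protein, was at 3.19, 2.85, 2.43 and 2.66 CPM in the WT libraries and 13.1, 10.4, 11.97 and 12.8 CPM in the KO libraries, a log2 fold change of 2.12 ± 0.11 (SE, adjusted p = 5.16e-08). OAS2, which makes the 2′-5′ oligoadenylates that activate RNase L, was at 3.99, 4.34, 4.02 and 4.38 CPM in the WT libraries and 13.4, 12.5, 11.3 and 11.6 CPM in the KO libraries, a log2 fold change of 1.54 ± 0.082. IFIH1 encodes MDA5, a sensor of long double-stranded RNA, and was at 3.30, 2.99, 3.68 and 3.84 CPM in the WT libraries and 8.95, 8.85, 9.56 and 8.48 CPM in the KO libraries, a log2 fold change of 1.38 ± 0.097. OASL, a relative of the OAS enzymes that enhances RNA sensing, was at 20.1, 22.5, 23.6 and 21.7 CPM in the WT libraries and 51.3, 54.4, 55.5 and 55.6 CPM in the KO libraries, a log2 fold change of 1.30 ± 0.057 (SE, adjusted p = 1.99e-08). None of these 4 genes had a KO library within the WT range, and the same held for OAS1†, which went from 0.138, 0.278, 0.0958 and 0.171 CPM to 0.939, 1.18, 1.33 and 1.13 CPM. The rise was uneven: ISG15†, a ubiquitin-like modifier, had a log2 fold change of 0.45 (adjusted p = 1.39e-04) and so missed the fold threshold, and MX1† had 0.15 (adjusted p = 0.294). The interferon genes IFNB1† and IFNA1† were at 0 in all 8 libraries. This allows up to 0.0437 CPM in the shallowest library (3 counts, counting error only), or more if a read adds several of the estimated counts. IFNL1† was at 0 in the 4 KO libraries and at most 0.117 CPM in WT.

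**Figure D3:**
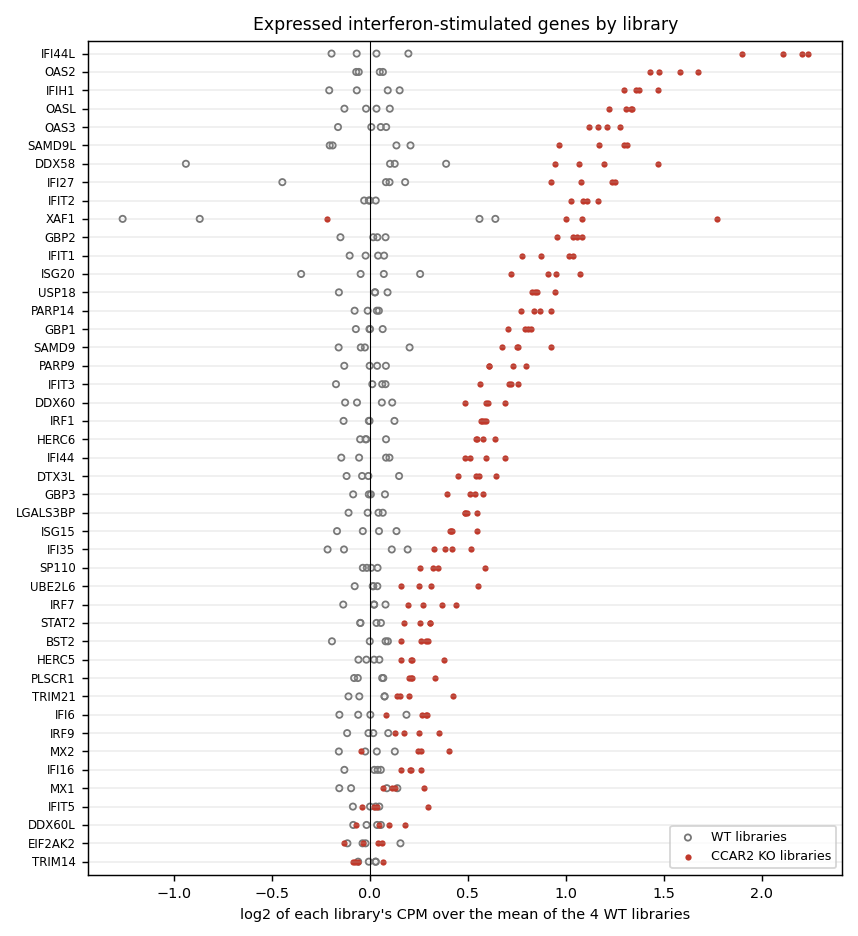
Expressed interferon-stimulated genes, one row each in the order of their log2 fold change, with the log2 ratio of each library's CPM to the mean of the 4 WT libraries; open circles are WT and red points CCAR2 KO libraries. From IFI44L down to LGALS3BP the KO libraries lie right of the WT libraries for every gene except XAF1, whereas TRIM14 and EIF2AK2 at the foot of the plot overlap.

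The promoters of these genes were read for the core of the interferon-stimulated response element, a pair of GAAA runs with any 2 bases between them on either strand, in the RefSeq sequences from 250 bases before to 50 bases after the start (GRCh38.p14). The motif occurred in 29 of the 42 interferon-stimulated genes with a sequence in that table (69.0%), against 1195 of all 27305 genes in it (4.38%). It was in 18 of 23 members called higher (78.3%) and in 11 of 18 members tested but not called (61.1%). OAS2 and OASL had no sequence in that table, so their promoters were not read. A match is a description of the letters and not evidence of binding. The promoters of the 4 expressed, called members of largest change that hold the motif are shown, 5′ to 3′ on the strand of the gene, with the motif in capitals, so that its place can be compared between them.
IFI44L, chr1:78620198-78620497, plus strand: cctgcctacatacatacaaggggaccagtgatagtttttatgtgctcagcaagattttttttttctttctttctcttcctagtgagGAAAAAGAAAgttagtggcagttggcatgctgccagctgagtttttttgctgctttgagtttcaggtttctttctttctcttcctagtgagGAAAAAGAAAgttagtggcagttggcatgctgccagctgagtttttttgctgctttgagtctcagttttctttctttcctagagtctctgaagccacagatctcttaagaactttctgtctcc
IFIH1, chr2:162318635-162318934, minus strand: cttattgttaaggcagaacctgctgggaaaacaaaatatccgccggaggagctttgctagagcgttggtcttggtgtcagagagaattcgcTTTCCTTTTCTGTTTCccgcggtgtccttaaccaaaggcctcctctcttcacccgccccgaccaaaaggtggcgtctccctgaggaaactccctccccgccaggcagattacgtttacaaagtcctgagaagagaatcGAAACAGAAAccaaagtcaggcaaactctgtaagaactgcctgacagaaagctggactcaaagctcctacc
OAS3, chr12:112938224-112938523, plus strand: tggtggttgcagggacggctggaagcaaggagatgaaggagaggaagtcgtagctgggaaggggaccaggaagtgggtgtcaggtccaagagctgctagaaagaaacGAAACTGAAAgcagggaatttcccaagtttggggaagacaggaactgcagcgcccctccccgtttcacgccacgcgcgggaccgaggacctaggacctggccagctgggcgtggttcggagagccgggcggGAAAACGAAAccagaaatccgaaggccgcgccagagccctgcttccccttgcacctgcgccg
IFI27, chr14:94110486-94110785, plus strand: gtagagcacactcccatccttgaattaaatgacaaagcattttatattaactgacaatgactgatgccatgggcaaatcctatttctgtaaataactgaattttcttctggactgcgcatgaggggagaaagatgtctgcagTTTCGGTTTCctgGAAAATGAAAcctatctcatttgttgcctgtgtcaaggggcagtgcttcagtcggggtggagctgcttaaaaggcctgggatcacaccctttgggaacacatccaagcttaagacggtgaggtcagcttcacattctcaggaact
IFI44L, IFIH1, OAS3 and IFI27 hold 2, 3, 2 and 2 matches, and the matches of IFIH1 at 159 and 153 bases before the start overlap. OAS3† and IFI27†, which lie outside the rule for named genes, had log2 fold changes of 1.19 ± 0.071 and 1.13 ± 0.14.

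Antigen presentation genes moved the same way with smaller steps, 7 of 23 higher (30.4%) and none lower by edgeR, DESeq2 or limma-voom (0 at an unadjusted p under 0.05). CD74, the invariant chain of MHC class II, was at 5.60, 5.56, 5.97 and 6.32 CPM in the WT libraries and 15.2, 13.4, 15.1 and 14.5 CPM in the KO libraries, a log2 fold change of 1.31 ± 0.075. TAPBP and TAP1, which load and transport peptides for MHC class I, had log2 fold changes of 0.85 ± 0.078 and 0.64 ± 0.10. HLA-C had 0.69 ± 0.12, a value that is uncertain because HLA genes resemble each other and vary between people. B2M†, the light chain of MHC class I, was at 203 ± 8.48 CPM in WT and 252 ± 9.81 CPM in KO cells (SD, n = 4) and its log2 fold change of 0.31 missed the fold threshold.

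Inflammatory genes were called higher as well. Of 31 cytokines and chemokines, 12 were higher (38.7%) and 1 lower. CSF1, the growth factor of macrophages, was at 86.8, 97.1, 93.3 and 104 CPM in the WT libraries and 221, 221, 233 and 227 CPM in the KO libraries, a log2 fold change of 1.24 ± 0.053 (SE, adjusted p = 1.71e-08). CSF2, CSF3 and IL6, all at 1 to 7 CPM in KO cells, had log2 fold changes of 1.39 ± 0.14, 1.32 ± 0.15 and 1.37 ± 0.19. The 1 lower member was IL11†, an IL6-family cytokine, at 49.7, 53.4, 53.9 and 58.2 CPM in the WT libraries and 22.6, 25.5, 26.6 and 25.1 CPM in the KO libraries, a log2 fold change of -1.11 ± 0.063. IL6 and IL11 thus moved in opposite directions, each without overlap between the groups. Of 25 NF-kB pathway genes, 7 were higher (28%) and none lower by edgeR, DESeq2 or limma-voom (4 at an unadjusted p under 0.05), led by TRAF1 (1.20 ± 0.076), an adaptor of TNF receptors, by BCL3 (1.06 ± 0.076), a nuclear IkB protein, and by RELB (0.98 ± 0.066), the subunit of the noncanonical pathway. ICAM1, an adhesion receptor for leukocytes, had 0.62 ± 0.066. Of 18 complement genes, 5 were higher (27.8%) and none lower by edgeR, DESeq2 or limma-voom (1 at an unadjusted p under 0.05). CFP encodes properdin, which stabilizes the convertase of the alternative pathway, and was at 2.49, 3.36, 3.14 and 3.71 CPM in the WT libraries and 13.5, 16.1, 16.6 and 14.5 CPM in the KO libraries, a log2 fold change of 2.26 ± 0.12. CLU, the chaperone clusterin, had 0.96 ± 0.055.

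Genes of the basement membrane and its receptors formed the next large group. Epithelial cells attach to laminin through integrins, and the chains LAMA3 and LAMB3 are part of the laminin of the epidermis. LAMA3 (ENSG00000053747, chromosome 18, 23689443 to 23956222) was at 3.61, 2.94, 3.61 and 3.26 CPM in the WT libraries and 20.6, 19.9, 22.1 and 22.1 CPM in the KO libraries, a log2 fold change of 2.66 ± 0.084 (SE, adjusted p = 2.14e-09). LAMB3† was far more abundant, at 726, 735, 744 and 800.2 CPM in the WT libraries and 986, 971, 1081 and 1019 CPM in the KO libraries, with a log2 fold change of 0.43 ± 0.049 that missed the fold threshold. Both chains were higher in every KO library than in any WT library, by unequal steps. Of 29 integrins and laminins, 12 were higher (41.4%) and none lower by edgeR or limma-voom and 1 by DESeq2 (4 at an unadjusted p under 0.05). ITGA2, a collagen receptor, was at 102, 89.4, 87.8 and 98.9 CPM in the WT libraries and 215, 199, 189 and 199 CPM in the KO libraries, a log2 fold change of 1.09 ± 0.056. ITGA10, another collagen-binding subunit, had 2.09 ± 0.12.

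Collagens were called in both directions, 11 of 28 higher (39.3%) and 4 lower (14.3%). COL6A1 (ENSG00000142156, chromosome 21, 45981737 to 46005050), a chain of the beaded-filament collagen, was at 41.99, 50.98, 48.2 and 56.1 CPM in the WT libraries and 166, 161, 186 and 178 CPM in the KO libraries, a log2 fold change of 1.81 ± 0.079 (SE, adjusted p = 1.99e-08). COL6A3, of the same trimer, had 1.58 ± 0.15. The basement membrane collagen COL18A1 had 1.14 ± 0.062, and the hemidesmosome collagen COL17A1 had 1.03 ± 0.089. The 4 members called lower were COL8A1, COL8A2, COL12A1† and COL5A2, of which COL12A1 was at 122, 89.7, 99.1 and 111 CPM in the WT libraries and 62.8, 63.2, 59.5 and 61.9 CPM in the KO libraries, a log2 fold change of -0.77 ± 0.078. Collagen VI and collagen VIII genes thus moved apart, and the summed level of the list was between 889 and 1014 CPM in WT and between 1122 and 1204 CPM in KO libraries.

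Among proteases and inhibitors of the matrix, 15 of 45 were higher (33.3%) and 4 lower (8.89%). The metalloproteases ADAM8 and ADAM19, which shed cell surface proteins, had log2 fold changes of 1.23 ± 0.067 and 1.26 ± 0.057, and ADAMTS9, a secreted proteoglycanase, had 1.18 ± 0.14. MMP14†, the membrane-bound collagenase, was at 347 ± 21.8 CPM in WT and 568 ± 17.3 CPM in KO cells, and the inhibitors TIMP1† and TIMP3† were at 92.98 ± 6.02 CPM in WT and 171 ± 7.40 CPM in KO cells and at 132 ± 7.87 CPM in WT and 279 ± 4.72 CPM in KO cells (SD, n = 4). The soluble collagenase MMP1, given above, was lower, so that collagenases moved apart. Of 13 genes of hyaluronan metabolism, 6 were higher (46.2%) and none lower by edgeR, DESeq2 or limma-voom (2 at an unadjusted p under 0.05). CEMIP (ENSG00000103888, chromosome 15, 80779343 to 80951776), which binds and depolymerizes hyaluronan, was at 0.784, 1.05, 0.767 and 1.39 CPM in the WT libraries and 11.1, 9.71, 12.5 and 12.3 CPM in the KO libraries, a log2 fold change of 3.52 ± 0.18 (SE, adjusted p = 5.65e-08). Its relative CEMIP2 had 0.79 ± 0.057. The synthases HAS2 and HAS3 had 1.46 ± 0.11 and 0.68 ± 0.22, and of these 4 genes the groups overlapped for HAS3 alone. HAS3 was no longer called without WT replicate 2, 3 or 4 or KO replicate 3 or 4, when its log2 fold change lay between 0.46 and 0.71.

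**Figure D4:**
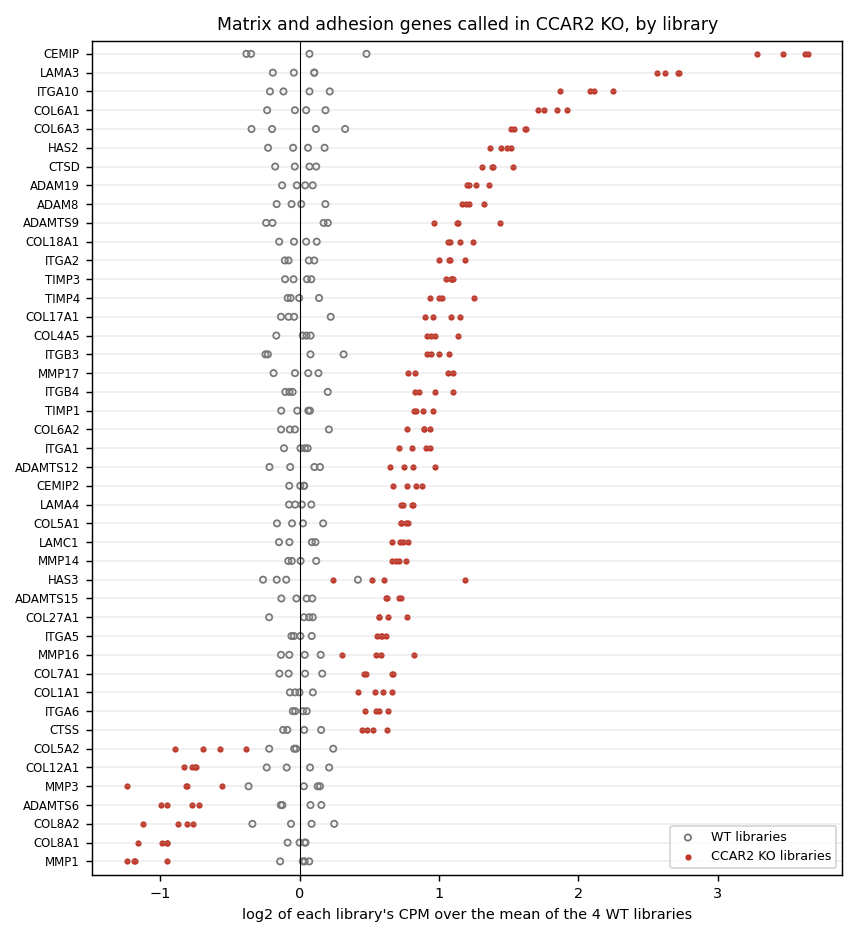
Expressed collagen, integrin, laminin, matrix protease, inhibitor and hyaluronan genes that were called, one row each in the order of their log2 fold change, with the log2 ratio of each library's CPM to the mean of the 4 WT libraries; open circles are WT and red points CCAR2 KO libraries. CEMIP, LAMA3 and ITGA10 stand at the top, MMP1 and COL8A1 at the foot, and the groups overlap for HAS3.

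Several secretory epithelial genes were called higher, most of them from low levels in WT cells. Of 21 secretory epithelial genes tested, 11 were higher (52.4%) and 1 lower, while 20 of the 41 on the list were too low to test. MUC5AC, a gel-forming mucin, was at 0.956, 0.494, 0.886 and 1.29 CPM in the WT libraries and 8.75, 7.28, 9.28 and 7.77 CPM in the KO libraries, a log2 fold change of 3.19 ± 0.23 (SE, adjusted p = 7.25e-07). AGR2, the protein disulfide isomerase that mucin folding needs, was at 0.381, 0.477, 0.311 and 0.204 CPM in the WT libraries and 3.07, 3.02, 3.40 and 3.11 CPM in the KO libraries, a log2 fold change of 3.19 ± 0.22. SFTPB, a lung surfactant protein, was at 0.481, 0.733, 0.484 and 0.670 CPM in the WT libraries and 4.09, 4.43, 6.94 and 6.30 CPM in the KO libraries, a log2 fold change of 3.20 ± 0.21. SPDEF, the ETS factor that drives goblet and luminal cell programs, was at 2.94, 3.99, 4.36 and 4.30 CPM in the WT libraries and 13.7, 16.3, 18.5 and 16.5 CPM in the KO libraries, a log2 fold change of 2.06 ± 0.13 (SE, adjusted p = 2.66e-07). In each of the 4 genes every KO library was above every WT library. TFF1†, a trefoil peptide and a classical estrogen-responsive gene, was at 0 in the 4 WT libraries. In the KO libraries it was at 0.0650, 0.101, 0.168 and 0.122 CPM. It passed the count filter only through the KO libraries, so the separation of the groups was set by the filter and is no evidence. TFF1 is among the 11 called higher and the 7 luminal markers below, and no fold is given against a level of 0. The 1 lower member was the forkhead factor FOXA3, with -1.48 ± 0.26. The summed level of 18 luminal breast markers was between 2169 and 2477 CPM in WT and between 2049 and 2220.3 CPM in KO libraries, and 7 were higher (38.9%) and none lower by edgeR, DESeq2 or limma-voom (2 at an unadjusted p under 0.05), among them the melanosome transport protein MLPH (0.96 ± 0.056), the prolactin receptor PRLR (1.07 ± 0.14) and the estrogen-responsive gene GREB1 (1.01 ± 0.15).

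Epithelial and mesenchymal genes did not divide by direction. Of 36 epithelial junction and keratin genes, 9 were higher (25%) and 1 lower, and of 26 mesenchymal genes, 5 were higher (19.2%) and 3 lower (11.5%). The tight junction protein CLDN1 was at 11.8, 11.1, 9.23 and 10.1 CPM in the WT libraries and 24.6, 25.1, 22.1 and 23.1 CPM in the KO libraries, a log2 fold change of 1.17 ± 0.081 (SE, adjusted p = 5.85e-07). The epithelial ETS factor ELF3 and the protease inhibitor SPINT1 had 1.45 ± 0.16 and 1.33 ± 0.11, and the basal keratin KRT14 was lower, with -1.63 ± 0.18. On the mesenchymal side, S100A4, a calcium-binding protein of motile cells, was at 13.4, 19.4, 16.2 and 16.96 CPM in the WT libraries and 56.5, 65.5, 65.9 and 65.3 CPM in the KO libraries, a log2 fold change of 1.94 ± 0.098 (SE, adjusted p = 4.55e-08). CDH11, a mesenchymal cadherin, was at 137, 149, 138 and 159 CPM in the WT libraries and 319, 302, 328 and 319 CPM in the KO libraries, a log2 fold change of 1.12 ± 0.052, and FN1 has been given above. TAGLN, an actin-binding protein of smooth muscle, was lower, at 37.6, 43.5, 42.7 and 34.8 CPM in the WT libraries and 14.96, 17.04, 16.9 and 16.3 CPM in the KO libraries, a log2 fold change of -1.28 ± 0.078. Genes of both programs rose while CDH1† stayed near 0 and VIM† had a log2 fold change of 0.03 ± 0.048. Among markers of other cell types, the endothelial genes PECAM1 and TIE1 had 1.11 ± 0.14 and -0.51 ± 0.18, and the endothelial factor ERG was at 0 in all 8 libraries. TIE1 was no longer called without WT replicate 1, 3 or 4 or KO replicate 1, 3 or 4, when its log2 fold change lay between -0.56 and -0.39. The fibroblast collagen COL1A1 had 0.56 ± 0.068, and the fibroblast markers DPT, MFAP5 and PDPN were at 0. The neuronal tubulin TUBB3 had 0.23 ± 0.053 and SNAP25 had 0.09 ± 0.16, neither of them called.

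Growth factor and receptor genes changed in each of the signaling lists. In the TGF-beta and BMP list, 11 of 37 were higher (29.7%) and 2 lower. LTBP1 (ENSG00000049323, chromosome 2, 32946972 to 33399509), which holds TGF-beta in its latent complex in the matrix, was at 5.17, 4.53, 6.46 and 6.58 CPM in the WT libraries and 26.2, 26.2, 27.1 and 26.4 CPM in the KO libraries, a log2 fold change of 2.22 ± 0.11 (SE, adjusted p = 4.01e-08). LTBP3, of the same family, was at 27.2, 33.9, 30.8 and 33.1 CPM in the WT libraries and 77.4, 76.8, 86.9 and 79.9 CPM in the KO libraries, a log2 fold change of 1.36 ± 0.069. The stress cytokine GDF15 and the inhibitory protein SMAD6 had 1.25 ± 0.10 and 1.16 ± 0.11. In the Notch list, 5 of 26 were higher (19.2%) and 4 lower (15.4%). The ligand JAG1 (ENSG00000101384, chromosome 20, 10637684 to 10673999) was at 46.2, 44.7, 45.3 and 50.2 CPM in the WT libraries and 162, 161, 166 and 161 CPM in the KO libraries, a log2 fold change of 1.80 ± 0.044 (SE, adjusted p = 6.36e-10). HES1, a repressor induced by Notch, had 1.41 ± 0.092, the coactivator MAML3 had 1.24 ± 0.15 and the glycosyltransferase LFNG had 0.96 ± 0.096. The 4 KO libraries of JAG1 lay close together and each was more than 3 times the highest WT library.

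In the MAPK list, 9 of 35 were higher (25.7%) and 2 lower. EREG, a ligand of the EGF receptor, was at 41.1, 33.2, 32.5 and 37.8 CPM in the WT libraries and 109.8, 103, 102 and 109 CPM in the KO libraries, a log2 fold change of 1.55 ± 0.070 (SE, adjusted p = 2.36e-08). TGFA, another ligand of that receptor, had 0.92 ± 0.045. The feedback inhibitor SPRY1 and the ETS factor ETV1 had 1.15 ± 0.056 and 0.88 ± 0.056. Dual-specificity phosphatases moved apart: DUSP6†, which acts on ERK, was at 314 ± 17.2 CPM in WT and 547 ± 9.15 CPM in KO cells, and DUSP1†, an early-response phosphatase, was at 169.8 ± 7.95 CPM in WT and 96.8 ± 3.24 CPM in KO cells (SD, n = 4). In the WNT list, 6 of 37 were higher (16.2%) and 2 lower, with the coreceptor LRP5 at 95.6, 98.9, 102 and 118 CPM in the WT libraries and 240.1, 228, 275 and 249 CPM in the KO libraries, a log2 fold change of 1.26 ± 0.071. The R-spondin receptor LGR4 had 1.12 ± 0.053, and the ligands WNT7B and WNT10B had 0.58 ± 0.060 and -0.72 ± 0.12. Of 30 semaphorin, plexin and neuropilin genes, 11 were higher (36.7%) and 1 lower. The coreceptor NRP1 was at 218, 205, 209 and 226 CPM in the WT libraries and 433, 405, 419 and 427 CPM in the KO libraries, a log2 fold change of 0.97 ± 0.043 (SE, adjusted p = 1.99e-08). The receptors PLXNA1 and PLXND1 had 0.97 ± 0.067 and 0.92 ± 0.061, and the ligand SEMA6D had 0.98 ± 0.11.

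Angiogenic factors were called on both sides, 9 of 30 higher (30%) and 7 lower (23.3%). THBS1†, an inhibitor of angiogenesis, was at 308 ± 6.47 CPM in WT and 613 ± 23.3 CPM in KO cells, and VEGFA†, the main endothelial growth factor, at 65.1 ± 5.60 CPM in WT and 119 ± 3.05 CPM in KO cells (SD, n = 4). ANGPTL2 had 1.22 ± 0.10. On the other side stood ESM1 with -3.13, the growth factor FGF5 with -1.19 ± 0.073, the vasodilator peptide ADM with -1.002 ± 0.056 and the vasoconstrictor EDN1† with -0.84 ± 0.047. Of 25 YAP and TAZ target genes, 1 was higher and 4 lower (16%), or 2 lower without WT replicate 1 or KO replicate 3. F3, the tissue factor that starts coagulation, was at 386, 386, 384 and 368 CPM in the WT libraries and 238, 229, 219.5 and 226 CPM in the KO libraries, a log2 fold change of -0.74 ± 0.039 (SE, adjusted p = 5.91e-08). ANKRD1 had -0.54 ± 0.052, whereas TGFB2 had 0.58 ± 0.047. In the insulin and IGF list, 5 of 24 were higher (20.8%) and 1 lower, with the binding protein IGFBP4 at 957, 1105, 1056 and 1106 CPM in the WT libraries and 1841, 1857, 1988 and 1922 CPM in the KO libraries, a log2 fold change of 0.85 ± 0.055. Its relative IGFBP6 had 1.001 ± 0.086, the RNA-binding protein IGF2BP3 had 0.78 ± 0.077 and the kinase subunit PIK3R3 had 0.77 ± 0.087. Of 32 receptor tyrosine kinases, 5 were higher (15.6%) and 1 lower: DDR1, a collagen receptor, MST1R and LTK had 0.83 ± 0.13, 0.63 ± 0.068 and 0.60 ± 0.091, and FGFR4 had -0.93 ± 0.11.

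Calls among sterol transport genes were increases, and those among cholesterol synthesis genes were mostly decreases. Of 27 sterol transport genes, 6 were higher (22.2%) and none lower by edgeR, DESeq2 or limma-voom (3 at an unadjusted p under 0.05). ABCA1 (ENSG00000165029, chromosome 9, 104781002 to 104928237), which exports cholesterol, was at 0.790, 0.933, 0.661 and 0.946 CPM in the WT libraries and 4.79, 4.65, 5.20 and 6.73 CPM in the KO libraries, a log2 fold change of 2.68 ± 0.16 (SE, adjusted p = 1.86e-07). GRAMD1B, which carries cholesterol from the plasma membrane to the endoplasmic reticulum, was at 0.0773, 0.0722, 0.0862 and 0.125 CPM in the WT libraries and 2.41, 1.55, 2.23 and 1.81 CPM in the KO libraries, a log2 fold change of 4.48 ± 0.24. MYLIP, a ubiquitin ligase, and APOL1 had 0.88 ± 0.071 and 1.13 ± 0.092. ABCA1 and MYLIP are known targets of the sterol-sensing liver X receptors. NR1H3, which encodes such a receptor, was at 3.66, 5.31, 5.96 and 5.73 CPM in the WT libraries and 7.15, 8.40, 8.78 and 8.91 CPM in the KO libraries, a log2 fold change of 0.69 ± 0.14 (SE, adjusted p = 0.00277). In contrast, 4 of 25 cholesterol synthesis genes were lower (16%) and 1 higher, 22 had a negative log2 fold change, and the median was -0.31. The 4 lower members, IDI1, HMGCS1, ACAT2 and CYP51A1, act along the mevalonate and sterol branch, and their log2 fold changes were -0.77 ± 0.052, -0.66 ± 0.042, -0.53 ± 0.043 and -0.52 ± 0.052. HMGCS1 was at 96.2, 90.6, 93.4 and 91.8 CPM in the WT libraries and 59.2, 62.1, 55.7 and 58.3 CPM in the KO libraries. Without KO replicate 3, CYP51A1 had -0.48 and was not called. SQLE†, which makes the epoxide precursor of sterols, had -0.48 ± 0.052, within the fold threshold, which it passed without KO replicate 1 (-0.51). Of 41 fatty acid and lipid droplet genes, 6 were higher (14.6%) and 1 lower. SREBF1, the master factor of fatty acid synthesis, was at 100.1, 108, 107 and 115 CPM in the WT libraries and 187, 199.8, 219.6 and 212 CPM in the KO libraries, a log2 fold change of 0.93 ± 0.056. LPIN2, a phosphatidate phosphatase, had 0.84 ± 0.036, and FADS3 had -0.74 ± 0.042.

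Several large gene families shifted down by small steps that mostly stayed inside the fold threshold. None of the 79 cytosolic ribosomal proteins was called by edgeR, DESeq2 or limma-voom, yet all 79 had a negative log2 fold change (49.0% of all genes tested did), 68 were lower at the adjusted p alone (15.4% of all genes tested) and 77 at an unadjusted p under 0.05. The median was -0.30, and it lay between -0.33 and -0.27 in the 4 KO libraries and between -0.11 and 0.10 in the 4 WT libraries. RPLP0 was at 2551, 2812, 2810.1 and 2609 CPM in the WT libraries and 2194, 2195, 2269.7 and 2141 CPM in the KO libraries, a log2 fold change of -0.29 ± 0.049. Of 73 nuclear respiratory chain genes, 69 were negative and 28 lower at the adjusted p alone, with a median of -0.16. That median lay between -0.20 and -0.14 in the 4 KO libraries and between -0.13 and 0.10 in the 4 WT libraries. The groups did not overlap for 17 of the 73, all lower, while 41.8% of all expressed genes had no overlap in either direction. CYCS, the electron carrier cytochrome c, was the 1 member called lower (-0.59 ± 0.062). For the 13 genes of the mitochondrial genome the median was 0.01, with 2 lower and none higher at the adjusted p alone, none was called by edgeR, DESeq2 or limma-voom, and 2 were higher and 2 lower at an unadjusted p under 0.05. CS, which encodes citrate synthase, was the 1 TCA cycle gene called, at 353, 342, 344 and 345 CPM in the WT libraries and 219.7, 221, 212 and 211 CPM in the KO libraries, a log2 fold change of -0.68 ± 0.036 (SE, adjusted p = 5.65e-08). Of 29 glycolysis genes, 1 was higher (3.45%), the glucose transporter SLC2A3 with 0.61 ± 0.047, while GAPDH and ENO1 had -0.07 ± 0.050 and -0.04 ± 0.047.

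Cell cycle genes showed the same small shift. Of 47 G1/S and replication genes, none was called by edgeR, DESeq2 or limma-voom, 42 were negative, 28 were lower and none higher at the adjusted p alone, and at an unadjusted p under 0.05 the numbers were 30 and 1. The median was -0.17. Of 46 G2/M genes, 2 were called lower, UBE2S (-0.55 ± 0.071) and HMGB2 (-0.55 ± 0.051), and 28 were lower at the adjusted p alone. TYMS, thymidylate synthase, was at 353, 366, 362 and 342 CPM in the WT libraries and 286, 302, 286 and 298 CPM in the KO libraries, a log2 fold change of -0.28 ± 0.039, while the proliferation antigen MKI67† had 0.06 ± 0.087 and overlapping groups. Replication-dependent histones, which are made in S phase and mostly lack a poly-A tail, shifted further in these poly-A RNA libraries: 13 of 41 were lower (31.7%), 1 was higher, 39 were negative, and the median was -0.45. Without KO replicate 1 the count of lower histones was 8. The linker histone H1-2 was at 58.2, 72.3, 71.6 and 63.8 CPM in the WT libraries and 35.2, 35.8, 33.1 and 37.6 CPM in the KO libraries, a log2 fold change of -0.91 ± 0.070 (SE, adjusted p = 1.47e-06). H4C9 had -0.95 ± 0.069, and H2AC18 and H2AC19 had -0.96 ± 0.076 and -0.96 ± 0.078. The last pair is near-identical in sequence, so its counts cannot be read as independent. Splicing factors, with a median of -0.11, had 1 of 45 called, the epithelial regulator ESRP1 (0.71 ± 0.13).

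**Figure D5:**
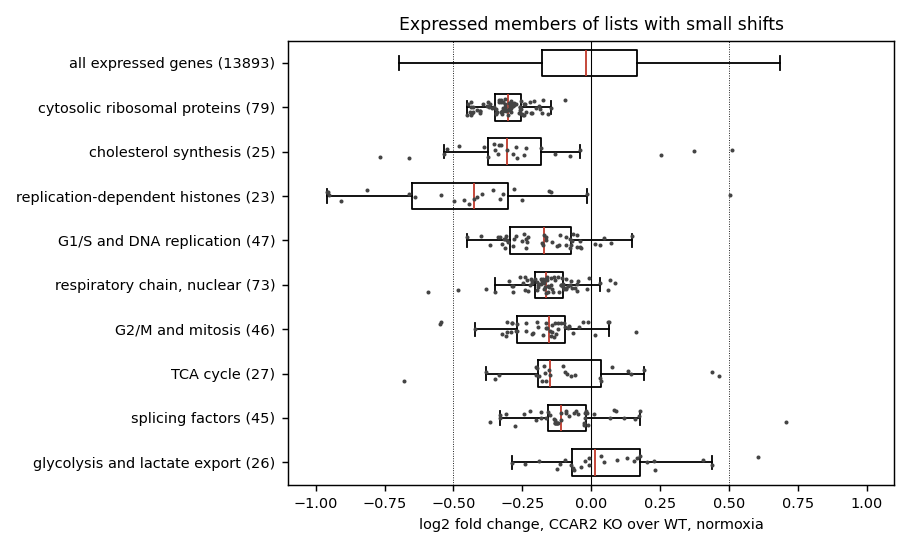
Log2 fold change of CCAR2 KO over WT for the expressed members of 9 gene lists and for all 13893 expressed genes; boxes span the quartiles with the median in red, whiskers reach the last value within 1.5 times the box, and points are single genes, without points for all expressed genes. Ribosomal proteins lie in a narrow band around a median of -0.30, and dotted lines mark a log2 fold change of 0.5 in either direction.

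The log2 fold change also differed by transcript length, taken as the longest annotated transcript of each gene. Among expressed protein-coding genes, of which 12161 of 12164 have a transcript in GENCODE v29, the median log2 fold change was -0.16 for the 278 genes whose longest transcript is under 1000 bases and increased at each step to 0.06 for the 1092 genes of 8000 bases or more. In the shortest class the medians of the 4 KO libraries against the WT mean lay between -0.21 and -0.11, in the longest between 0.02 and 0.11. The median longest transcript was 1857 bases for ribosomal proteins, 1426 bases for nuclear respiratory chain genes, 3087 bases for cholesterol synthesis and 3313 bases for G1/S genes, and the part of length in these results was not tested. By GC content, the class medians lay between -0.06 and 0.03. Processed pseudogenes resemble their parent transcripts, so reads may be split between them. Of 54 expressed pseudogenes of ribosomal proteins 11 were lower, none was higher and 51 were negative (median -0.37), and of 259 others 20 were lower and 6 higher.

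Stress and redox genes showed a few large changes among many small ones. Of 31 NRF2 targets, 6 were higher (19.4%) and none lower by edgeR, DESeq2 or limma-voom (3 at an unadjusted p under 0.05). AKR1C1, an aldo-keto reductase that acts on steroids and lipid aldehydes, was at 1.40, 1.66, 1.67 and 1.64 CPM in the WT libraries and 8.32, 7.44, 6.89 and 7.13 CPM in the KO libraries, a log2 fold change of 2.22 ± 0.11. AKR1C3 had 1.64 ± 0.075. AKR1C genes are near-identical to each other, so the split of reads between them is uncertain. ABCC3, an export pump for conjugates, was at 11.2, 12.4, 11.8 and 13.1 CPM in the WT libraries and 43.2, 40.2, 47.7 and 42.4 CPM in the KO libraries, a log2 fold change of 1.84 ± 0.069 (SE, adjusted p = 7.14e-09). In the unfolded protein and integrated stress response list, 5 of 39 were higher (12.8%, or 3 without WT replicate 1 or WT replicate 2) and 1 lower, with 1.30 ± 0.17 for NUPR1, 0.62 ± 0.091 for DNAJB9, 0.58 ± 0.079 for DDIT4 and -0.58 ± 0.044 for the serine synthesis enzyme PSAT1. In the list of the BCL2 family, which also holds AVEN, 1 of 22 was higher (4.55%) and 2 lower (9.09%), with a median of -0.02 over the list. Of all genes tested, 6.73% were higher and 2.94% lower. BMF, a proapoptotic member, had 1.02 ± 0.27, or 0.78 to 1.29 with 1 library left out, and its WT libraries spread from 0.707 to 2.43 CPM. BCL2 and AVEN, both antiapoptotic, had -0.58 ± 0.080 and -0.53 ± 0.061.

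The cells were in normoxia, and genes of the hypoxia response were called, 10 of 38 higher (26.3%) and 1 lower. EPAS1 (ENSG00000116016, chromosome 2, 46293667 to 46386703), which encodes HIF2α, was at 27.2, 26.4, 24.3 and 29.2 CPM in the WT libraries and 70.1, 73.03, 71.2 and 71.9 CPM in the KO libraries, a log2 fold change of 1.42 ± 0.055 (SE, adjusted p = 8.15e-09). ARNT2, a partner of the HIF alpha subunits, was at 3.56, 2.26, 3.05 and 3.56 CPM in the WT libraries and 9.002, 9.88, 10.3 and 9.20 CPM in the KO libraries, a log2 fold change of 1.62 ± 0.13. HIF1A† was at 263 ± 11.5 CPM in WT and 411 ± 14.7 CPM in KO cells (SD, n = 4). EPAS1, ARNT2 and HIF1A are subunits rather than targets of the factor, whereas the target CA12, a carbonic anhydrase, had 0.94 ± 0.098 and ADM had -1.002. Clock genes, which set the circadian transcription loop, had 7 of 21 higher (33.3%) and none lower by edgeR, DESeq2 or limma-voom (3 at an unadjusted p under 0.05). NPAS2, the CLOCK paralog, was at 22.4, 21.8, 23.03 and 24.4 CPM in the WT libraries and 50.4, 48.6, 53.1 and 48.6 CPM in the KO libraries, a log2 fold change of 1.13 ± 0.053 (SE, adjusted p = 2.88e-08). The repressors BHLHE40, BHLHE41 and NR1D1 had 0.93 ± 0.069, 0.86 ± 0.11 and 0.89 ± 0.060. The cells were not sampled by time of day as far as the labels tell, so phase is unknown.

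Among the known partners of DBC1, the genes called were nuclear receptors, and the deacetylases were not called. Of 21, 4 were higher (19%) and none lower by edgeR, DESeq2 or limma-voom (6 at an unadjusted p under 0.05), and the median was -0.05. The expressed ones were NR1D1 and NR1H3. NR1D1 encodes the heme-binding repressor REV-ERBα, whose stability DBC1 is known to affect, and was at 11.01, 10.4, 10.7 and 10.6 CPM in the WT libraries and 20.5, 19.9, 20.4 and 18.5 CPM in the KO libraries. SIRT1† was at 30.1 ± 1.33 CPM in WT and 29 ± 1.59 CPM in KO cells, a log2 fold change of -0.05 ± 0.057. HDAC3† was at 102 ± 3.53 CPM in WT and 79.3 ± 4.04 CPM in KO cells, a log2 fold change of -0.37 ± 0.045 that missed the fold threshold although the groups did not overlap. The paralog CCAR1† and the DBIRD partner ZNF326† had 0.04 ± 0.049 and -0.05 ± 0.059. The ubiquitin ligase SIAH2† and the deubiquitinase OTUD5†, which act on DBC1 protein, had -0.19 ± 0.061 and 0.03 ± 0.045. Of 24 genes of sirtuins and NAD supply, 2 were higher (8.33%), of which NMNAT2, a cytosolic NAD synthase, was expressed, at 34.2, 30.4, 31.9 and 37.5 CPM in the WT libraries and 60.4, 58.8, 67.2 and 64.3 CPM in the KO libraries, a log2 fold change of 0.91 ± 0.068.

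The lists that remain are given briefly. Several of them had a larger share called than all genes tested, of which 6.73% were higher and 2.94% lower. Nuclear receptors had 5 of 35 higher (14.3%, or 3 without KO replicate 4) and 2 lower, including the early-response receptor NR4A1 (-0.62 ± 0.11) among the lower ones. Ion channels had 7 of 46 higher (15.2%) and 3 lower, with ORAI3, TRPV2, KCNN4 and CACNB3 at 0.93 ± 0.093, 0.92 ± 0.23, 0.68 ± 0.067 and 0.68 ± 0.15. Of 19 glutamate and GABA receptor genes, 2 were higher and 1 lower, GRIK2 with 1.44 ± 0.15 and GRM5 with -2.03. Amino acid transporters had 3 of 25 higher (12%), among them SLC6A9 with 0.88 ± 0.12 and SLC1A1 with 0.77 ± 0.17. Metallothionein and zinc transport genes had 1 of 23 higher, the zinc exporter SLC30A1 (0.64 ± 0.063), while MT2A had -0.20 ± 0.077. Of 18 HOX genes, none was called higher by edgeR, 1 was by DESeq2 and 1 by limma-voom, 3 were higher at an unadjusted p under 0.05, and 2 were called lower, among them HOXB9 with -0.82 ± 0.054. Of 11 cancer-testis antigens, 2 were higher (18.2%) and 2 lower (18.2%), and the 1 expressed member among them, MAGEA3, had 2.23 ± 0.12, a value shared in part with its near-identical neighbor MAGEA6. In hematopoietic, fibroblast and neuronal marker lists, 2 of 8, 2 of 5 and 1 of 7 tested members were higher. edgeR called none lower, DESeq2 and limma-voom each called 1 hematopoietic marker lower, and at an unadjusted p under 0.05 the lower members numbered 1, 0 and 0, as edgeR tested them. Of the higher members, only COL1A1 averaged 1 CPM or more.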

How the data were processed

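Poly-A RNA of WT and CCAR2 KO MDA-MB-231 cells was sequenced from total RNA by the authors, who aligned the reads and obtained counts per gene. Per the labels the tools were HISAT2, SAMtools and featureCounts, while the methods name StringTie in place of featureCounts. The genome build and annotation are not given in the sources used here. The deposited values are estimated counts, whole numbers that are scaled neither to depth nor to gene length, so their totals are a guide to depth rather than a number of reads. Whether the counting used strand is also not given, so reads of overlapping genes cannot be assigned with certainty. Coordinates, biotypes and transcript lengths were taken from GENCODE v29 (GRCh38) by identifier, and promoters from RefSeq.

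The 8 normoxic libraries were grouped by their labels, 4 per group. Genes that passed edgeR's filterByExpr were normalized by TMM and tested with the quasi-likelihood test (edgeR 4.0.16, R 4.3.3) with Benjamini-Hochberg adjustment over all genes tested. Calls needed an adjusted p under 0.05 and a log2 fold change of 0.5 or more either way. CPM values are given in replicate order, and SD refers to 4 libraries. In simulated data with 200 changed genes among 21410, edgeR recovered 99% of them with 11 false calls. All changes planted there were of at least 1 on the log2 scale, in genes averaging at least 1 CPM. Recovery of smaller changes and of less abundant genes was therefore not tested. DESeq2 1.42.0, limma-voom (limma 3.58.1), other filters and scalings, a fit of all 12 libraries, a replicate block and omission of each library were tried as alternatives.

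Genes named are CCAR2, those with the 15 largest increases and 15 largest decreases among called, expressed genes with a symbol and no overlap between groups, the 8 most abundant such genes in each direction, and, for each list, up to 4 called, expressed members of largest change, or the 2 most abundant where fewer than 2 were called. Some of these are given by name alone, and some genes and a gene list are not reported here. The comparison, the gene lists and this rule were chosen with earlier results of these data known.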

Additional observations from a re-analysis of the deposited data

Results flagged for a closer look

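In 396 groups of 4 libraries, 1 for each named gene and group, the highest or lowest library was compared with the other 3 as the gap to its neighbor divided by the range of the group (Dixon's ratio). In 22 groups the ratio passed the 95% critical value, where chance gives about 1 in 20, or 19.8.

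Among WT libraries, replicate 1 was lowest for TUBB3 (ratio 0.988, 98.1 CPM against 112.4 to 112.5 CPM in the others), ENO1 (0.960), AKR1C1 (0.867), GREB1 (0.837) and GDF15 (0.831), and highest for FGF5 (0.866). Replicate 4 was lowest for ESM1 (0.922, 35.3 CPM against 38.7 to 39.0 CPM), F3 (0.859) and CCAR1 (0.832), and highest for SPINT1 (0.869), FGFR4 (0.842) and ELF3 (0.838, 1.16 CPM against 0.790 to 0.849 CPM). Replicate 3 was highest for LTK (0.849).

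Among KO libraries, replicate 3 was highest for CST1 (0.994, 3.34 CPM against 2.85 CPM), MST1R (0.955), ISG15 (0.931) and JAG1 (0.860). Replicate 1 was lowest for S100A4 (0.938, 56.5 CPM against 65.3 to 65.9 CPM) and KCNN4 (0.884). Replicate 4 was highest for EDN1 (0.945) and MKI67 (0.857), and replicate 2, the shallowest library, was highest for CCAR1 (0.987). For each of these genes that was called, the outlying library still lay on its own group's side of the other group.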

How the results depend on the processing

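Across DESeq2, limma-voom, RLE normalization, other filters, the fit of all 12 libraries, the replicate block and values divided by 4, the genes called higher numbered 1280 to 1538 against 1441, and those called lower 588 to 661 against 629. The replicate block gave 1393 and 603, and 994 and 468 among expressed genes. Same-numbered libraries of the groups did not deviate together (correlations 0.02, -0.05, 0.07 and -0.20). These values show no sign of pairing by number, but they cannot tell whether such libraries were prepared together. Leaving out 1 library gave 1291 to 1461 higher and 557 to 672 lower, and among expressed genes 936 to 1024 and 449 to 508. The threshold moved the counts most: at the adjusted p alone 3199 genes were higher and 3307 lower (expressed genes 2751 and 3146), and at a log2 fold change of 1 or more either way they were 604 and 171 (expressed genes 285 and 77). With a mean of at least 10 CPM the lowest and highest chromosome medians became -0.11 and 0.0096, and the lowest and highest biotype medians -0.31 and 0.0281. Direction was followed only for the genes of the naming rule and some others, and no called gene among these changed it. MKI67, CCAR1 and ESR1, none of them called, changed sign with 1 library left out (-0.02 to 0.17, -0.01 to 0.06 and -0.10 to 0.42). ERBB2, not called either, did so without the filter. TIE1 lost its call with limma-voom, without a filter, with all 12 libraries and under the block, HAS3 without a filter and with all 12 libraries, and PLIN4 with all 12 libraries, while SQLE gained one without a filter. Without 1 library, RBMS3, NR4A2 and PLIN4 also fell below a threshold, beside the genes named with that limit above, and replication-dependent histones called lower numbered 8 without a filter. The cause of these changes was not tested. KO replicate 2, the shallowest library, set the limit of 0.0437 CPM on what could be detected, which is higher if a read adds several of the estimated counts.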
